A study of Mus musculus with 6 samples.

Results

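The integrin and laminin genes of 6 mouse brain tumor libraries were examined as a family of cell-matrix receptors and of one class of their ligands. Members were taken by symbol alone, as the numbered integrin alpha genes with Itgav and Itga2b, the numbered integrin beta genes and the numbered laminin alpha, beta and gamma genes. This gave 32 of the 24537 gene rows of the counts table, with 13 integrin alpha subunits, 8 integrin beta subunits and 11 laminin chains. Itgam and Itgax, alpha subunits of leukocytes, lie outside that rule. The tumors were raised in CD-1 IGS mice by in utero electroporation, in which DNA injected into the embryonic brain is driven into nearby cells by an electric pulse. Per the sample titles all tumors carried PdgfraD482V, a mutant of a growth factor receptor, and DNp53, a dominant-negative p53. To these, 3 libraries add FOXR2, a forkhead transcription factor, and 3 are titled Control. The sources used here do not give the constructs' promoters, the age at collection or any pooling of animals. A sample sheet deposited with the counts names the opposite group for 6 of 6 libraries, so groups are called "titled FOXR2" and "titled Control", and all directions invert if the sheet is correct.

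Integrins are transmembrane receptors made of an alpha and a beta subunit, and the pair decides which matrix protein is bound. Itgb1 pairs with most alpha subunits, while Itgb3, Itgb5, Itgb6 and Itgb8 pair with Itgav and bind ligands with an arginine-glycine-aspartate motif. Laminins are secreted trimers of an alpha, a beta and a gamma chain that build basement membranes, and the alpha chain carries the main integrin-binding site. In brain, laminins line blood vessels and the pial surface, integrins that contain Itga6 or Itgb1 anchor radial glia, and the pair of Itgav and Itgb8 activates latent TGF-beta.

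Of the 32 members, 21 had entries in the RefSeq promoter table for GRCm38.p6, with 24 start sites between them. Each entry runs from 250 bases before to 50 bases after a start site. The promoters of Itgb1, Itgb8 and Itga3 are printed because the levels of these 3 integrins did not overlap between the groups. Of the 2 start sites of Itga3, the one with a CCGGAA match is shown. Lama4 had no entry, and Lamb3 had 2 entries with no match. Capitals mark matches on either strand to CCGGAA (core of an ETS site, the family in the series title), GTAAACA (forkhead), TGANTCA (AP-1) or GGGCGG (SP1).
Itgb1, chr8:128685404-128685703, plus strand: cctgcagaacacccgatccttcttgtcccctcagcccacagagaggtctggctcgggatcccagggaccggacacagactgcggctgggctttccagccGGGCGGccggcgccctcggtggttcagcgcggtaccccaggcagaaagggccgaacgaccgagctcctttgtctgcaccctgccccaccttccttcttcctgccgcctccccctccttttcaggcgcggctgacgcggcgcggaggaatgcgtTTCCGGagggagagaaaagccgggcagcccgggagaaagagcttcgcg
Itgb8, chr12:119238227-119238526, minus strand: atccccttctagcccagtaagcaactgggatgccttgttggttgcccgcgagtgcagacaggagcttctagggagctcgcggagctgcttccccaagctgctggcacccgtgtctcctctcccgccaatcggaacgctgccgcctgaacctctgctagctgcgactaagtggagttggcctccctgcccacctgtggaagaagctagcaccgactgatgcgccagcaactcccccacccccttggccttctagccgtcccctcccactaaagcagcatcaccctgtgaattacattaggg
Itga3, chr11:95076665-95076964, minus strand: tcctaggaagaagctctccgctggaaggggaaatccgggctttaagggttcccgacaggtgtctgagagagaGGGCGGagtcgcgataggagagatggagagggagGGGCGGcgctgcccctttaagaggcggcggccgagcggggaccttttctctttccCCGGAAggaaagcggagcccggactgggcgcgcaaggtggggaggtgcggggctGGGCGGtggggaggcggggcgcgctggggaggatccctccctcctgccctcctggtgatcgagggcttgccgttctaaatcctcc
CCGGAA was found in 2 of the 24 entries, those of Itgb1 and Itga3, and in 14.9% of all 32851 promoters of this length. GTAAACA was found in 0 of the 24 and in 3.6% of all. TGANTCA was in 2 (Itga9 and the other start site of Itga3) and in 7.8% of all. GGGCGG was in 11 of the 24 and in 35.7% of all, and no match overlapped one of another motif. The Itgb8 window held none of the 4 motifs. GC content was 67.3% for Itgb1, 60.7% for Itgb8 and 66.7% for Itga3, beside a median of 52.7% over all promoters. These matches are letters in a window and not measured binding.

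The libraries held 13429489 to 17927025 counts, and 3 counts, used here as a floor, came to 0.174 to 0.219 CPM (counts scaled to a fixed library size, with TMM factors). Floors cover counting error only. Mouse Foxr2 was counted 22, 1 and 7 times under the FOXR2 title and 4, 10 and 7 times under the Control title, so the counts overlapped and do not check the titles. FOXR2 replicate 2 stood apart: 18 microglia and macrophage markers summed to 1689 CPM there and to 6.46 to 18 in the other 5 libraries, with C1qa at 228 CPM against at most 0.840. The same library held 58.5 CPM of 10 fibroblast and meningeal markers, against 3.85 to 18.02. Of 15 endothelial markers, Pecam1 stood at 0.0596 to 2.03 CPM, Cdh5 at 0 to 1.52 and Cldn5 at 0 to 0.190. Higher on that list were Egfl7 at 7.37 to 28.93 CPM, Ramp2 at 4.49 to 16.85, Ly6c1 at 2.15 to 23.57 and Flt1 at 0.219 to 12.2. The labels call the source brain tumor cells, and 11 oligodendrocyte precursor markers summed to 5540 to 9901 CPM in these libraries. These are bulk libraries, so fewer cells of a type and less RNA per cell cannot be told apart. By Y-linked genes and Xist, FOXR2 replicates 1 and 3 and Control replicate 1 were read as male and the other 3 libraries as female. No label ties a library to its own animal, and p-values cover only the spread between these libraries.

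**Figure D1:**
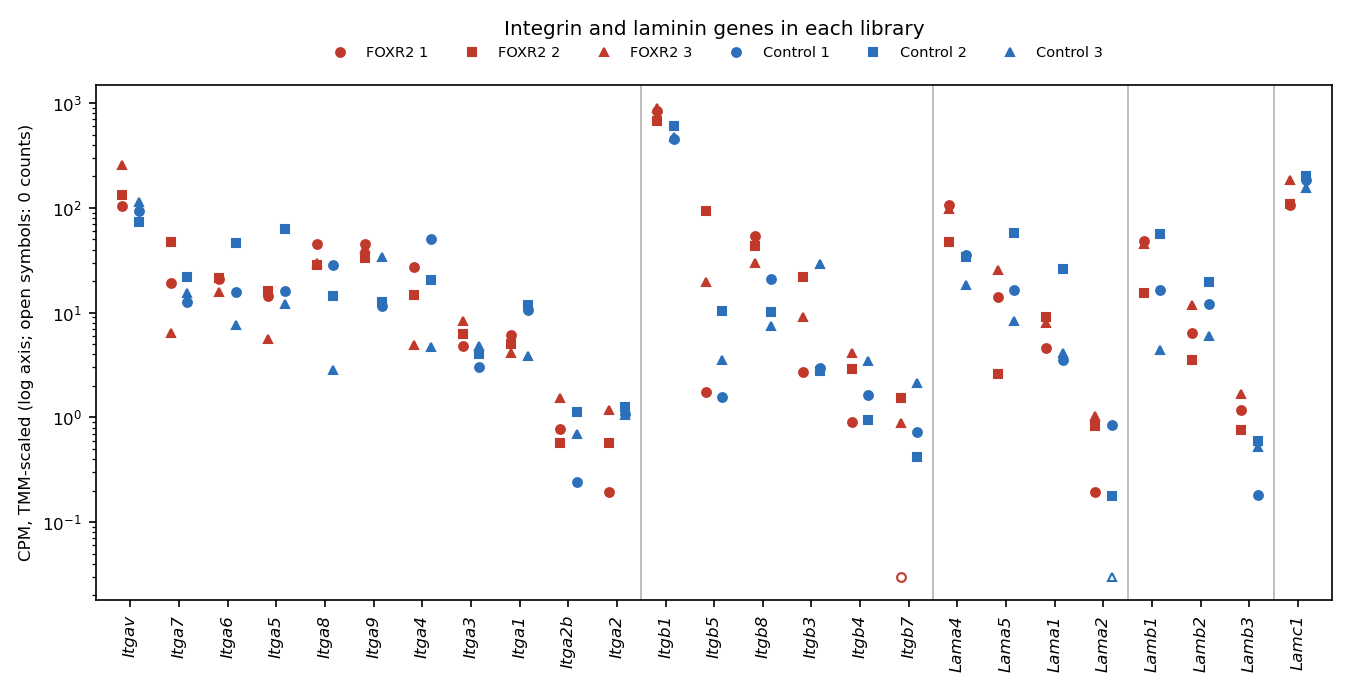
Level of the 25 tested members in each of the 6 libraries, in CPM on a log axis, with red symbols for libraries titled FOXR2 and blue for libraries titled Control. Itgb1 lies between 451 and 898 CPM and above all other members, and open symbols at the bottom mark libraries with 0 counts.

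Set against each other, the titles separated few members. After the filter on low counts, 25 of the 32 were tested, and edgeR called 0 higher and 0 lower at an adjusted p under 0.05, where 0.908% of all 13101 tested genes were called higher and 1.38% lower. At an unadjusted p under 0.05, 4 members were higher (Itgb8, Lama4, Itgb1 and Itga9) and 0 lower, against 11.9% and 13% of all tested genes. The groups did not overlap in 5 of the 25, all higher in the libraries titled FOXR2 (Itgb1, Itgb8, Itga3, Lama4 and Lamb3), and in 0 on the lower side. Over all tested genes these shares were 13.1% higher and 17.2% lower. The fit put 14 of the members above 0 and 11 below, and their median was 0.47 on the log2 scale beside 0.01 over all genes. DESeq2 called Itgb8, Lama4 and Itgb1 higher (adjusted p = 0.00224, 0.00415 and 0.0341) where DESeq2 called 6.91% of the 13713 genes with an adjusted p higher and 6.91% lower, and limma-voom called 0 members. Without FOXR2 replicate 2, 7 members did not overlap on the higher side, where 20.3% of all genes did, and edgeR again called 0. Marker sums of precursors and neurons also differed by title, while those of the other cell types read overlapped. The 11 precursor markers came to 9901, 7195 and 8877 CPM against 6475, 5540 and 6443, with 7 fitted above 0 and 4 below. Taken singly, 1 of the 11, Ptprz1, did not overlap on the higher side and 0 on the lower. The shares of all tested genes were 13.1% and 17.2%. The 13 neuron markers came to 1132, 1134 and 1291 against 836, 800 and 776. Of the 11 neuron markers tested, 8 were fitted above 0 and 3 below. The groups did not overlap in 5 on the higher side and in 2 on the lower, Nefm and Nefl. Map2, which overlapped, gave 560, 622 and 805 against 612, 598 and 462 CPM of the neuron sum. Pdgfra, whose mutant form all these tumors carry, is among the precursor markers, and without it the other 10 came to 6301, 4698 and 5614 against 4430, 3034 and 4425 CPM. None of these precursor and neuron sums overlapped between the groups, and their part in the 5 members above was not tested.

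**Figure D2:**
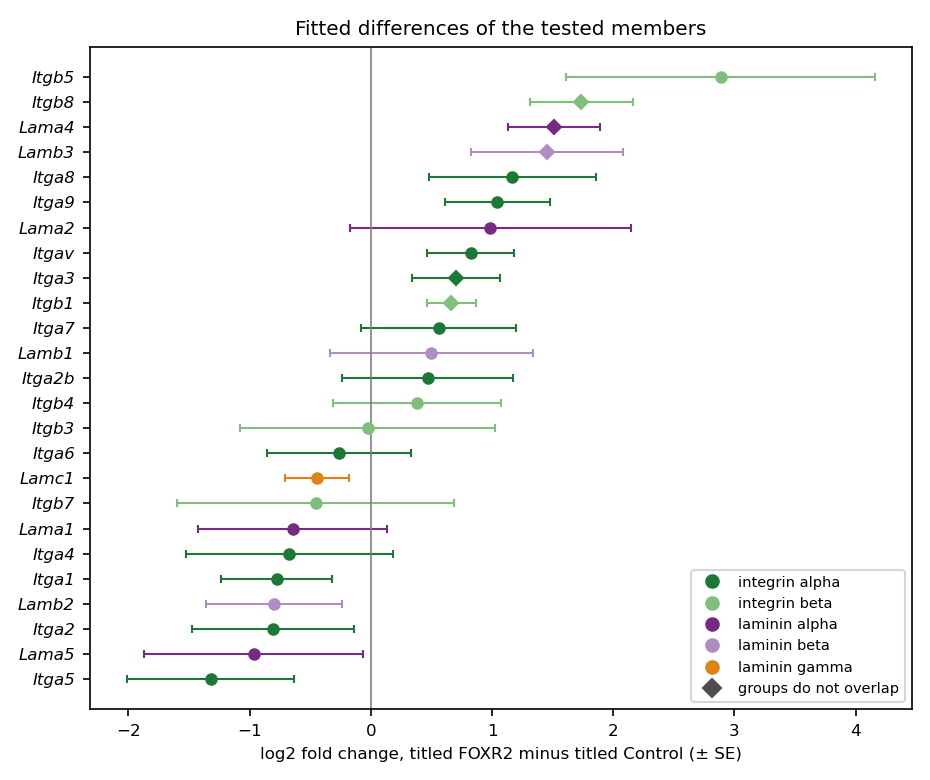
Log2 fold change of the 25 tested members, titled FOXR2 minus titled Control, with the standard error as bars and colors for the class. Diamonds mark the 5 members whose groups did not overlap, and Itgb5 has both the largest value (2.89) and the widest bar (1.27).

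Itgb1, the shared beta subunit, was the most abundant member per kilobase of transcript. Replicates 1, 2 and 3 titled FOXR2 held 847, 681 and 898 CPM of it, and those titled Control 451, 603 and 477 CPM (values below keep this order). All 3 libraries titled FOXR2 were above all 3 titled Control, and the nearest pair was FOXR2 replicate 2 and Control replicate 2. The means were 809 ± 114 and 510.2 ± 81.3 CPM (SD, n = 3 each). The log2 fold change was 0.66 ± 0.20 (standard error; edgeR adjusted p = 0.109, unadjusted 0.0125). Scaled by length, Itgb1 averaged 173 CPM per kilobase and made up 76.8% to 96.7% of the summed level of the 8 beta subunits in each library.

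Itgb8, the partner of Itgav in TGF-beta activation, showed the smallest p of the members. It stood at 54.4, 43.3 and 29.99 CPM in the libraries titled FOXR2 and at 20.8, 10.2 and 7.38 CPM in those titled Control. The groups did not overlap, and FOXR2 replicate 3 and Control replicate 1 were the nearest. Its log2 fold change was 1.74 ± 0.43 (edgeR adjusted p = 0.073, unadjusted 0.00422), from means of 42.6 ± 12.2 and 12.8 ± 7.05 CPM. With each library left out in turn it ranged from 1.46 to 2.27. Its promoter window is the one above without a match to the 4 motifs. Itgav itself, which binds vitronectin and latent TGF-beta, was the most abundant alpha subunit per kilobase. It stood at 104, 131 and 258 CPM against 92.4, 72.7 and 114 CPM. FOXR2 replicate 3 was more than double any library titled Control, while FOXR2 replicate 1 was below Control replicate 3. The log2 fold change of Itgav was 0.82 ± 0.36 (edgeR adjusted p = 0.21), and without FOXR2 replicate 3 it was 0.34. Per kilobase, the ratio of Itgb8 to Itgav was 0.438, 0.277 and 0.0977 under the FOXR2 title and 0.189, 0.118 and 0.0545 under the Control title, so the groups overlapped in this ratio.

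Itgb5, another partner of Itgav and a vitronectin receptor subunit, varied most among the tested members above 5 CPM. It stood at 1.76, 92.7 and 19.6 CPM against 1.56, 10.3 and 3.54 CPM. FOXR2 replicate 2 alone held 71.6% of the summed level, and FOXR2 replicate 1 was next to the lowest of all. On the log2 scale the difference was 2.89 ± 1.27 (edgeR adjusted p = 0.213). Without FOXR2 replicate 2, the library with 1689 CPM of microglia markers, it was 1.05 and the unadjusted p was 0.354. Itgb5 also stood at 19.6 CPM in FOXR2 replicate 3 and 10.3 in Control replicate 2, where these markers summed to 6.86 and 18 CPM. The part of microglia in its level was not tested.

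Itgb2, the beta subunit of leukocyte integrins, was high in 1 library. It stood at 46.4 CPM (734 counts) in FOXR2 replicate 2 and at 0.120 to 0.392 CPM (2 to 6 counts) in the other 5, and so failed the filter. Its alpha partners followed the same library. Itgam reached 85.8 CPM there and 0 to 0.232 elsewhere, Itgax 31.6 against 0 to 0.0600, and Itgal 4.94 against 0.116 to 0.596. Itgb7, of lymphocyte integrins, had 0 to 37 counts and its highest level, 2.15 CPM, in Control replicate 3, and a log2 fold change of -0.45 ± 1.14. Lymphocyte markers summed to 0.639 to 5.69 CPM.

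**Figure D3:**
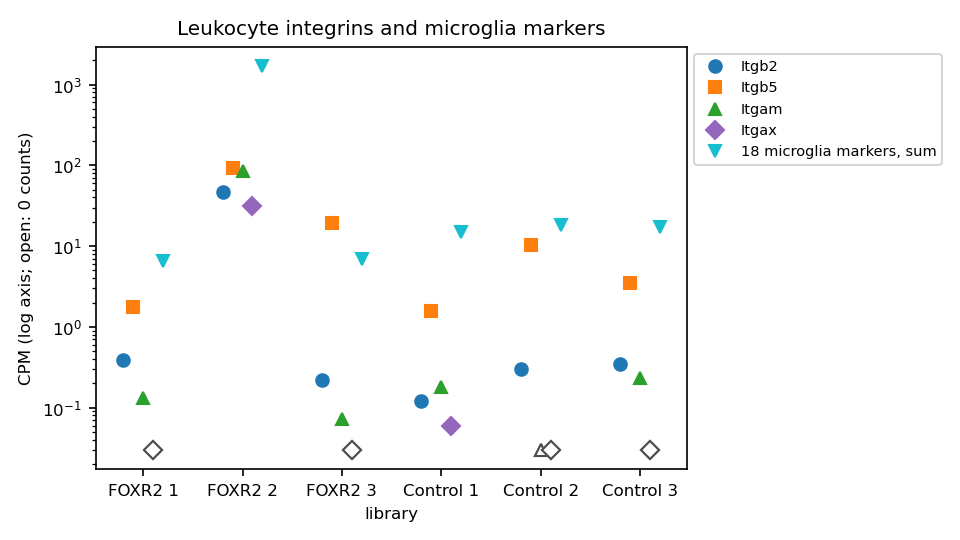
Level of Itgb2, Itgb5, Itgam, Itgax and the sum of 18 microglia and macrophage markers in each library, in CPM on a log axis, with open symbols for 0 counts. All 5 series peak in FOXR2 replicate 2, and Itgb5 alone of the 4 integrins is above 3 CPM in other libraries.

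The remaining beta subunits overlapped between the titles. Itgb3, which forms the vitronectin receptor with Itgav and the platelet receptor with Itga2b, stood at 2.74, 22.1 and 9.12 CPM against 2.94, 2.80 and 28.8 CPM. The highest library was titled Control and the lowest FOXR2, and the log2 fold change was -0.03 ± 1.05. Without Control replicate 3 it was 1.97 (edgeR unadjusted p = 0.0576). Itgb4, the hemidesmosome subunit that pairs with Itga6, ranged from 0.913 to 4.09 CPM over the 6 libraries, and Itgb6, of epithelia, from 0.0730 to 0.823. Control replicate 3 and FOXR2 replicate 2, the highest in Itgb3, were also the highest in 8 platelet markers, which summed to 6.72, 17.2 and 9.85 against 3.30, 2.27 and 20.3 CPM, and in 11 markers of mature oligodendrocytes, which summed to 265, 5535 and 1517 against 1940, 371 and 4432 CPM. The gene Gp1bb alone gave 4.70, 10.9 and 8.54 against 1.80, 0.775 and 19.5 CPM of the platelet sum. Of the other platelet markers Gp9 and Gp6 had 0 counts in all libraries, Pf4 had 0 in Control replicate 3, and Itga2b, the platelet partner, ranged from 0.240 to 1.53 CPM. The part of either cell type in Itgb3 was not tested.

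Among the laminin-binding alpha subunits, Itga6 and Itga7 were the more abundant and Itga3 the one that differed without overlap. Itga3 stood at 4.83, 6.201 and 8.25 CPM against 3.06, 3.99 and 4.76 CPM. FOXR2 replicate 1 and Control replicate 3 were nearly level, and the groups only just stayed apart. The difference on the log2 scale was 0.70 ± 0.37 (edgeR adjusted p = 0.278). Itga6 stood at 20.8, 21.5 and 15.8 against 15.6, 46.3 and 7.61 CPM, so both extremes lay in libraries titled Control. The fitted log2 difference was -0.26 ± 0.60, and 0.74 without Control replicate 2. Itga7, the muscle laminin receptor, stood at 19.4, 47.5 and 6.42 against 12.6, 21.7 and 15.5 CPM, with both extremes in libraries titled FOXR2. The fitted log2 difference was 0.56 ± 0.64, and -0.36 without FOXR2 replicate 2.

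Itga8 and Itga9 were the other alpha subunits with values above 1 on the log2 scale. Itga9, a receptor for tenascin-C that pairs with Itgb1, stood at 45.5, 32.9 and 41.4 CPM in the libraries titled FOXR2 and at 11.6, 12.6 and 33.9 CPM in those titled Control. Control replicate 3 overlapped the other group and the other two Control libraries lay well below it. The difference on the log2 scale was 1.04 ± 0.43 (edgeR adjusted p = 0.191), and without Control replicate 3 it was 1.72 (adjusted p = 0.072). Itga8, a nephronectin receptor subunit, stood at 45.1, 28.2 and 29.5 against 28.4, 14.5 and 2.85 CPM. Control replicate 1 was slightly above FOXR2 replicate 2, and Control replicate 3 was the lowest. Its log2 fold change was 1.17 ± 0.69 (adjusted p = 0.338), and 0.67 without Control replicate 3.

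The fibronectin receptor subunits Itga5 and Itga4 lay on the other side of 0. Itga5 stood at 14.6, 16.1 and 5.62 against 16.1, 62.8 and 11.97 CPM. Only Control replicate 2 was high. Its log2 fold change was -1.32 ± 0.69 (edgeR adjusted p = 0.281), and -0.21 without that library. Itga4, which also binds Vcam1, stood at 27.3, 14.9 and 4.96 against 49.9, 20.5 and 4.71 CPM, a 10.6-fold range with both ends in libraries titled Control and all 3 titled FOXR2 between them. The fitted log2 difference was -0.67 ± 0.85, and 0.31 without Control replicate 1. Of the collagen receptors, Itga1 stood at 4.09 to 6.13 CPM in the libraries titled FOXR2 and at 3.89 to 11.7 CPM in those titled Control, with a log2 fold change of -0.78 ± 0.46. Itga2 ranged from 0.196 to 1.25 CPM. Itga10 and Itga11 failed the filter, with 0 to 4 and 1 to 37 counts. Itga11 reached 28 and 37 counts in Control replicates 2 and 3 and 1 to 5 in the other 4 libraries.

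Lama4 was the leading laminin alpha chain and had the smallest p of the members after Itgb8. This chain is typical of the laminin of blood vessels. It stood at 106, 47.1 and 98.1 CPM in the libraries titled FOXR2 and at 35.8, 33.9 and 18.5 CPM in those titled Control. No library of the first group came below the second, and FOXR2 replicate 2 was the nearest. The log2 fold change was 1.51 ± 0.38 (edgeR adjusted p = 0.0769, unadjusted 0.00483), from means of 83.6 ± 31.9 and 29.4 ± 9.50 CPM. Without FOXR2 replicate 2 it was 1.79 (adjusted p = 0.0504), and over the fits without 1 library it ranged from 1.26 to 1.79. The summed level of 15 endothelial markers overlapped between the groups. It came to 36.4, 30.5 and 44.6 CPM under the FOXR2 title and 37.96, 32.5 and 54.4 under the Control title, most of it from genes other than Pecam1, Cdh5 and Cldn5. Of the 5 endothelial markers tested, 2 were fitted above 0 and 3 below. Egfl7 did not overlap, at 11.4, 8.16 and 7.37 against 13.8, 14.8 and 28.9 CPM, and so stood lower under the FOXR2 title. Flt1 had the opposite sign (2.66 on the log2 scale) and overlapped, at 12.2, 5.315 and 0.219 against 1.44, 0.715 and 0.639 CPM. The 12 markers of pericytes and smooth muscle summed to 25.6, 29.9 and 37.9 against 17.9, 26.2 and 29.2 CPM, with overlap. Among them Pdgfrb and Rgs5 stood at 0 to 3.35 and 0.0596 to 0.392 CPM, so most of that sum came from other genes. The part of vessel cells in Lama4 was not tested.

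Lama5 and Lama1 were next in level and had the reverse sign. Lama5, of mature basement membranes, stood at 14.2, 2.59 and 25.5 against 16.6, 57.6 and 8.31 CPM, a 22.2-fold range between FOXR2 replicate 2 and Control replicate 2. The fitted log2 difference was -0.97 ± 0.90, and 0.18 without Control replicate 2. Lama1, of the embryonic and pial basement membrane, stood at 4.57, 8.99 and 8.03 against 3.54, 26.1 and 4.13 CPM. The fitted log2 difference was -0.65 ± 0.78, and 0.92 without Control replicate 2. Lama2, the muscle chain, had 0 to 14 counts, and a log2 fold change of 0.99 ± 1.16. Lama3, an epithelial chain, had 49 counts in FOXR2 replicate 2 and 0 to 5 elsewhere, so 86.5% of its summed CPM lay in that library.

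Lamb1 and Lamb2 supplied the beta chains. Lamb1 was the more abundant per kilobase on average and stood at 48.7, 15.4 and 45.1 against 16.6, 56.2 and 4.36 CPM. High and low libraries occurred under both titles, and the log2 fold change was 0.50 ± 0.84. Without Control replicate 2 it was 1.80 (edgeR unadjusted p = 0.0482) and without Control replicate 3 -0.002. Lamb2, the chain of mature vessels and synapses, stood at 6.46, 3.54 and 11.8 against 11.99, 19.8 and 6.04 CPM, with a log2 fold change of -0.80 ± 0.56. Lamb3, an epithelial chain, was low: it had 18, 12 and 23 counts against 3, 10 and 9, or 1.17, 0.759 and 1.68 against 0.180, 0.596 and 0.523 CPM. The groups did not overlap, and the log2 fold change of Lamb3 was 1.45 ± 0.63 (edgeR adjusted p = 0.206).

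Lamc1, the gamma chain of most laminins, was the least variable laminin. It stood at 107, 108 and 185 CPM in the libraries titled FOXR2 and at 186, 202 and 155 CPM in those titled Control. FOXR2 replicate 3 lay within the Control range and the other two below it. Its log2 fold change was -0.44 ± 0.26 (edgeR adjusted p = 0.342), and -0.76 without FOXR2 replicate 3 (unadjusted p = 0.00858). Lamc3 had 1 count in FOXR2 replicate 1 and 0 in the other 5 libraries.

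**Figure D4:**
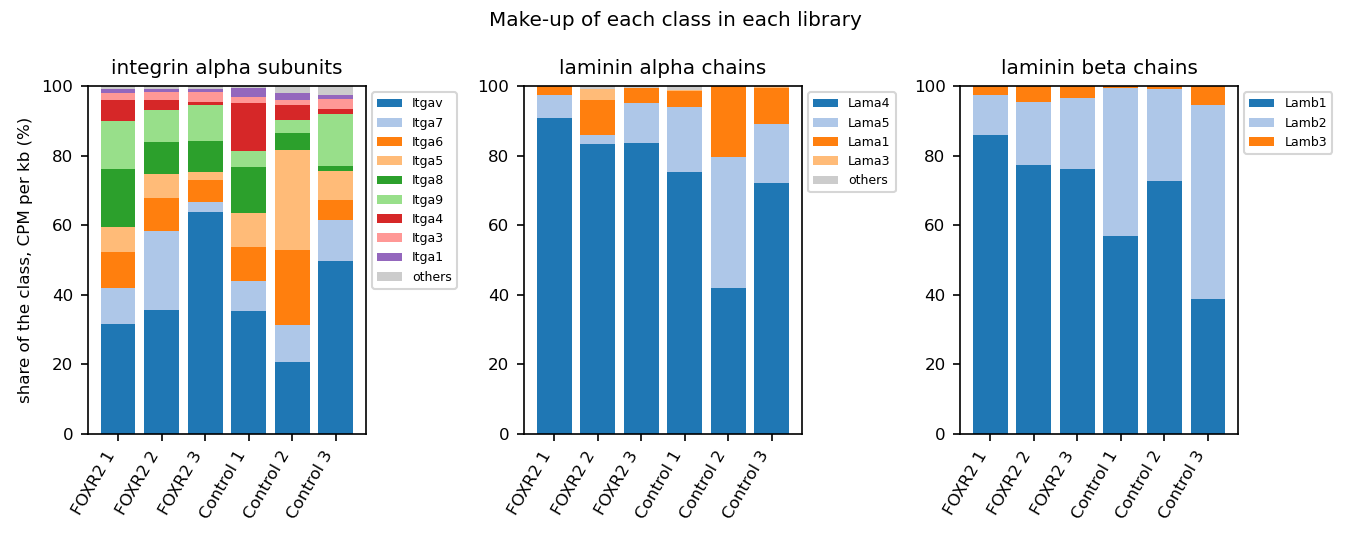
Share of each member in the summed level of its class, in percent of CPM per kilobase, for integrin alpha subunits, laminin alpha chains and laminin beta chains in each library. Lama4 makes up 83.4% to 90.9% of the laminin alpha chains under the FOXR2 title and 41.8% to 75.4% under the Control title.

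The laminin chains were also compared within each library. These shares and ratios were singled out after their values were seen and are given with no test. Lama4 made up 90.9%, 83.4% and 83.6% of the alpha chains per kilobase under the FOXR2 title and 75.4%, 41.8% and 72.0% under the Control title. Lamb1 made up 85.8%, 77.2% and 76.2% of the beta chains against 57.0%, 72.8% and 38.9%. Neither share overlapped between the groups. Per kilobase, the ratio of Lama4 to Lama5 was 14.1, 34.2 and 7.26 against 4.06, 1.11 and 4.19. The ratio of Lama4 to Lamc1 was 1.25, 0.551 and 0.667 against 0.242, 0.212 and 0.150, and that of Lamb1 to Lamb2 was 7.33, 4.22 and 3.74 against 1.35, 2.76 and 0.702. These 3 of 6 ratios computed did not overlap either. The share and the ratios of Lama4 use the Lama4 levels given above and are not separate results. Among the integrin alpha subunits, the share of Itgav overlapped, at 31.7% to 63.8% under the FOXR2 title and 20.6% to 49.7% under the Control title. That of Itga5 did not, at 7.1%, 7% and 2.2% against 9.9%, 28.7% and 8.4%. Nor did that of Itga2, which stayed at or under 0.5%, or that of Itga10, at 0.1% against 0% after rounding.

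The members varied widely from library to library. In 9 of the 25 tested, the highest library titled FOXR2 was more than 4-fold above the lowest with that title, against 10.7% of all tested genes. Within the Control title this held for 12 of the 25, against 7.78% of all. Over all 6 libraries, differences between the titles included, it held for 19 of the 25, against 22.3% of all tested genes. At mean levels from 20 CPM up, where counting error is smaller, this held for 10 of 14 members and 9.4% of all tested features. The median range was 7.39-fold for these members and 1.93-fold for these genes. Without FOXR2 replicate 2 the count over 25 members was 17, against 19.7% of all genes. Of the 20 tested members with a mean of at least 1 CPM, Control replicate 2 was the highest library for 8. They were Itga1, Itga5, Itga6, Lama1, Lama5, Lamb1, Lamb2 and Lamc1. Control replicate 2 was the highest library for 17.4% of all genes at that level and the lowest for 0 of the 20. Control replicate 1 was the lowest library for 7 of the 20, against 12.5% of all genes, and Control replicate 3 for 5, against 18.3%.

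**Figure D5:**
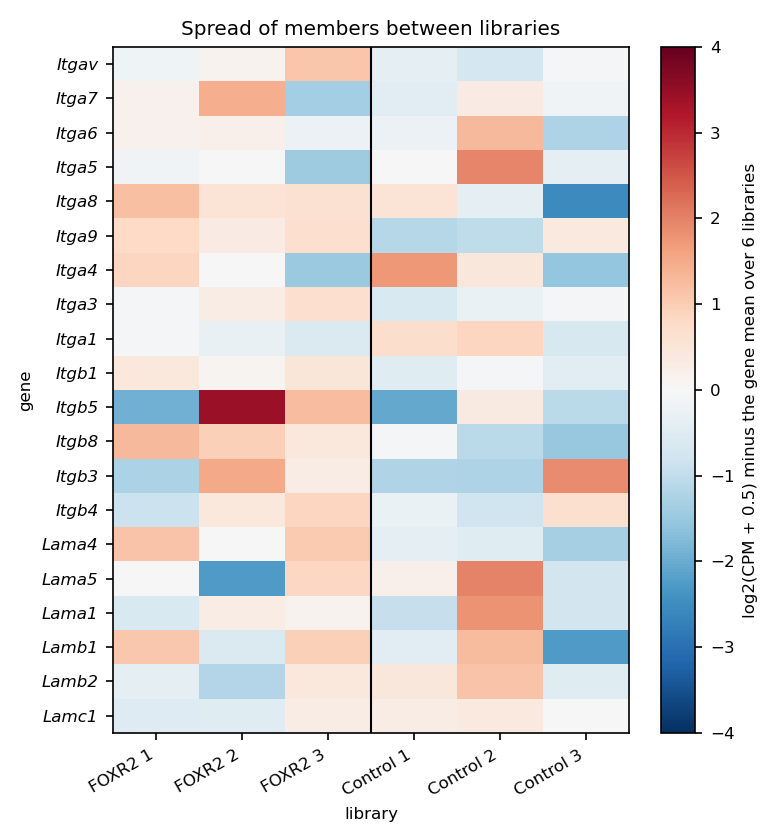
Deviation of each tested member with a mean of at least 1 CPM from its own mean over the 6 libraries. Values are log2(CPM + 0.5), with red above that mean and blue below. Itgb2, which failed the filter, is not shown. Control replicate 2 is the highest library for 8 of the 20 members shown, and Itgb5 in FOXR2 replicate 2 is the darkest red cell.

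Genes that work with integrins and laminins were read from lists of ligands, receptors and adaptors. Of 138 listed genes in the table, 115 were tested, with 67 fitted above 0 and a median log2 fold change of 0.11. EdgeR called 3 higher and 0 lower, against 0.908% and 1.38% of all tested genes. In 25 of the 115 the groups did not overlap on the higher side and in 10 on the lower, against 13.1% and 17.2% of all tested genes. The lists hold genes picked for their role, not for how they moved, but with earlier results of these data known. Pak1, a kinase downstream of Rac and Cdc42 at adhesions, was called at 151, 164 and 144 CPM against 62.0, 68.7 and 70.3 CPM (1.19 ± 0.16 on the log2 scale, edgeR adjusted p = 0.0343). Sgce, epsilon-sarcoglycan, was called at 58.5, 36.1 and 51.1 against 17.0, 19.9 and 23.3 CPM (1.28 ± 0.24, edgeR adjusted p = 0.0489). Thbs1, the matrix protein thrombospondin, was called at 1.11, 8.99 and 5.04 against 0.120, 0.238 and 0.174 CPM (edgeR adjusted p = 0.0462). Thbs1 was at 2 to 4 counts in each library titled Control, at or near the floor, and 17 to 142 in those titled FOXR2, so no fold is given. All 3 calls were lost in every fit that left out 1 library other than FOXR2 replicate 2, with 0 of the listed genes then called higher. Most calls over all genes were lost there too. Those fits called 1 to 9 genes higher and 0 to 1 lower, against 119 and 181 with all 6 libraries.

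Of 24 tested integrin ligands, Thbs1 among them, 16 were fitted above 0 with a median of 0.45. Fn1, fibronectin, stood at 68.1, 64.9 and 52.9 against 13.8, 31.2 and 8.95 CPM (edgeR adjusted p = 0.0741), and Postn, periostin, at 1.76, 18.8 and 33.4 against 0.840, 0.179 and 1.74 (adjusted p = 0.0851). Of 20 tested laminin receptors other than integrins, 12 were above 0 with a median of 0.27. The syndecan genes Sdc3 and Sdc2, of heparan sulfate proteoglycans, had log2 fold changes of 1.48 ± 0.31 and 1.103 ± 0.25 (edgeR adjusted p = 0.0575 and 0.0618). Of 13 tested partners of laminin in the basement membrane, 6 were above 0 with a median of -0.09. Fbln1, Ntn4 and Fbln2 had values of 0.70, 1.16 and -2.88 (edgeR adjusted p = 0.111, 0.198 and 0.209).

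Inside the cell, 28 integrin activators and adaptors had a median of 0.10 with 15 above 0. The talin genes Tln1 and Tln2, whose products bind beta tails, had opposite signs. Tln2 stood at 154, 121 and 155 against 42.3, 93.2 and 73.4 CPM and Tln1 at 193, 264 and 286 against 461, 485 and 328 CPM, neither with overlap (edgeR adjusted p = 0.0982 and 0.109). Tln1 was named after its values were seen. Rapgef3, an exchange factor for Rap1, and Tgfb1i1, a paxillin relative, had log2 fold changes of 0.92 and 2.61 (adjusted p = 0.0812 each). Of 30 integrin kinases and scaffolds, 18 were above 0 with a median of 0.10. After Pak1 the smallest adjusted p were those of Arhgef7, a Pak-binding exchange factor, at 0.92 ± 0.24 and Yes1, a Src family kinase, at -0.74 ± 0.26 on the log2 scale (edgeR adjusted p = 0.0795 and 0.145).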

How the data were processed

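The authors deposited whole-number read counts per gene symbol. TopHat and DESeq2, without versions, and the build hg19 are named in the submitters' processing notes. This is a human build but the table holds mouse symbols, and coordinates are given only for RefSeq promoters. The sources used here do not name the counting tool, annotation, alignment settings or strand setting.

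Per the labels' protocols, poly(A) RNA was made into strand-keeping libraries and read as single reads of 51 bases. Counts were fitted with edgeR 4.0.16 (R 4.3.3) with a filterByExpr minimum of 10 counts, leaving 13101 of 24537 genes, and TMM scaling. The quasi-likelihood F test compared 3 with 3 libraries with no covariate. Adjusted p (Benjamini-Hochberg, all tested genes) under 0.05 was called. Log2 fold changes use a prior count of 0.125. Their standard errors were worked back from the test, as the absolute log2 fold change divided by the square root of the F statistic. Transcript length, for levels per kilobase, was that of the longest protein-coding GENCODE transcript of a symbol.

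The members and lists were chosen with earlier results of these data known. Values in every library were given for members without overlap and a log2 difference of at least 1, the highest member per kilobase of each class, and members with at least 60% of their CPM in 1 library; others by level, range or per library. From the lists, called genes and the 3 smallest adjusted p were named. Alternatives were DESeq2 1.42.0, RLE and total-count scaling, no filter, limma-voom (limma 3.58.1), the replicate number as a block, animal sex as a covariate, a length and GC offset (mgcv 1.9.3) and each library left out. The values of 1 member are not reported here. The scripts were first tested on simulated data, where edgeR called 64.6% of 4-fold and 4.2% of 2-fold changes. Of 73 calls there, 7 were of unchanged genes. A member with a change of about 2-fold would thus mostly go uncalled. The changed genes there were drawn from all tested genes. Members varied more between libraries than those, so the 64.6% for 4-fold changes need not hold for members.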

Additional observations from a re-analysis of the deposited data

How the results depend on the processing

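No member was called by edgeR under any scaling, filter, covariate or left-out library tried, while DESeq2 called 3 members higher. Over all genes, DESeq2 called 947 higher and 947 lower (119 and 181 in edgeR), total-count scaling 119 lower, sex as a covariate 7 and 0, and the length and GC offset 64 and 66. Of the related genes (3 and 0), DESeq2 called 13 higher and 1 lower, limma-voom 1, the offset 1 and sex as a covariate 0. With the replicate block edgeR called 0 genes higher and 0 lower, related genes included, with 2652 at an unadjusted p under 0.05. Same-numbered libraries did not deviate together (r = -0.016, -0.241 and -0.010). Deviations from a mean of 3 libraries are tied to each other, so these values cannot settle whether the numbers pair libraries. Without FOXR2 replicate 2, 123 genes were called higher and 82 lower. Leaving out any other library gave 1 to 9 higher and 0 to 1 lower. Over all fits without 1 library, 0 to 3 related genes were called higher and 0 to 1 lower. The members' median then ranged from 0.105 to 0.726, and 0 to 3 members did not overlap on the lower side, where 20.1% to 23.3% of all genes did, an alternative chosen after seeing the data.

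The sign turned without 1 library for Itga2b (-0.031 to 1.03), Itga4 (-1.34 to 0.31), Itga6 (-0.68 to 0.74), Itga7 (-0.36 to 1.01), Itgb3 (-0.96 to 1.97), Itgb4 (-0.081 to 1.03), Itgb7 (-1.34 to 0.48), Lama1 (-1.08 to 0.92), Lama5 (-1.72 to 0.18) and Lamb1 (-0.002 to 1.80). For Itgb3 it was 0 with DESeq2, and it turned with RLE factors (0.012), total counts (0.049), limma-voom (0.40), the replicate block (0.31) and sex (0.74). It turned for Itga6 with limma-voom (0.13) and the replicate block (0.12) and for Lama1 with sex (0.025). The cause was not tested. The other 15 tested members kept their sign in all 14 alternatives; for 5 of them the groups do not overlap, so that leaving out a library could not turn it. At this depth Lamc3, Itga10 and Itgb6 were at or near the floor of 3 counts in most libraries.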
